A study of Homo sapiens with 12 samples.

Results

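Transfer RNA genes and their copies were followed through an anti-V5 PAR-CLIP experiment on ZC3H18 (Z18), in which RNA crosslinked to a V5-tagged protein is pulled down and sequenced. The members were defined by annotation, with earlier results of these data known: every listed repeat element, on either strand, whose RepeatMasker class was exactly tRNA. They numbered 388 elements in 60 families, of 2321299 repeat elements listed in the 12 libraries together, and 89 to 166 of them were listed in any single library.

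All 12 libraries came from A375, an established human melanoma line, transfected transiently with a V5-tagged protein in the pcDNA3.2 vector. The 4 groups of 3 libraries carried Clover, a green fluorescent protein that served as the control, full-length Z18 (Z18fl), truncated Z18 (Z18trunc), or the truncated protein with its aromatic zinc-finger residues mutated (Z18truncZnFmut). In every group 4-thiouridine labelling began 24 h after transfection, and the crosslinked RNA was pulled down with anti-V5, depleted of ribosomal RNA and sequenced with strand. Nothing in the labels says that the 3 libraries of a group came from separate cultures, so p-values measure the spread between these libraries, which may be technical. The transfected genes themselves and markers of the cell line were not analysed here, since the tables list repeat elements only.

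A tRNA gene is transcribed by RNA polymerase III from promoter elements inside the gene, the A and B boxes, and transcription ends at a run of T residues after the gene. The transcript is trimmed at its 5′ leader by RNase P and at its 3′ trailer by RNase Z, some families lose an intron, and CCA is added before the tRNA is charged with its amino acid. Mature tRNA is abundant, folded and heavily modified, which hinders reverse transcription, and the nuclear genome also holds decayed tRNA copies and insertions of mitochondrial DNA that carry mitochondrial tRNA sequence. ZC3H18 is a CCCH zinc-finger protein that links the cap-binding complex to the nuclear exosome.

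The libraries held 16683132 to 25686948 aligned fragments, of which only 235 to 542 counts a library fell on tRNA elements. Levels are given in CPM, the counts divided by the aligned fragments of the library and multiplied by 1000000, and sense means reads on the strand of the tRNA. Repeats of every class took 8.15% to 13.4% of the aligned fragments in 11 libraries and 19.9% in Z18truncZnFmut replicate 3, which stood apart, so values that it moves by much are also given without it. The counts over every repeat class had a mean of 84744 CPM with Clover, 103734 with Z18fl, 111961 with Z18trunc and 146703 with Z18truncZnFmut (120326 without replicate 3), and this gradient moves with each comparison to Clover; its part in the results was not tested. A level in an immunoprecipitate does not separate more RNA of a family in the cells from more of it recovered with the tagged protein.

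Most of the members were annotated tRNA genes. A RefSeq tRNA gene covered 271 elements (268 of the 443 nuclear tRNA genes in the RefSeq table), which held 90.1% of the sense counts. A further 12 matched RefSeq tRNA pseudogenes with 0.578% of the sense counts, 12 were copies of mitochondrial DNA with 2.62%, and 93 other copies held 6.73%. The RefSeq genes were little diverged (264 of 271 under 10% from their family consensus), whereas 20 of the 93 other copies were. Chromosome 1 held 101 elements and 45.0% of the sense counts, and chromosome 6 held 89 elements and 23.8%. On their own strand 272 of the 388 elements lay in no GENCODE gene, 92 in an intron and 24 in an exon.

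Genes from 4 of the leading sense families are shown with the 60 bases that follow them (hg38, strand as given), because the reads ran into that flank. Capitals mark an exact match to the B box consensus, searched on the strand of the tRNA, and the first TTTT after the gene.
TRL-CAG2-1, chr16:57299951-57300093 (plus strand): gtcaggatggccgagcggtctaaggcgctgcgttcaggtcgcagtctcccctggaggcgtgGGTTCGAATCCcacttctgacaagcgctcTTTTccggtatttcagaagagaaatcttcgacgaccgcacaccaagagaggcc
TRG-GCC1-2, chr1:161450677-161450810 (plus strand): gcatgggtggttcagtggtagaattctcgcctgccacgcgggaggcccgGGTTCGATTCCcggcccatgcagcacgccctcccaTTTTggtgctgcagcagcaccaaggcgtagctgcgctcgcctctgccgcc
TRM-CAT5-1, chr6:26701483-26701618 (plus strand): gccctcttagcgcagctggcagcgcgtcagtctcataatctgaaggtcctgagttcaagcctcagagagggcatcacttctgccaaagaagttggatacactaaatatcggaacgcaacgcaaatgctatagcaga
TRY-GTA3-1, chr6:26577104-26577253 (plus strand): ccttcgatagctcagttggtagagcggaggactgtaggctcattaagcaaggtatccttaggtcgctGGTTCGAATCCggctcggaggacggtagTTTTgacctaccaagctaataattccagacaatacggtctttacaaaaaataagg

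The B box match stood in 166 of the 271 RefSeq genes (61.3%), in 8 of the 93 other copies (8.60%) and in 0 of the 12 pseudogenes. Among elements of 66 to 90 bases they stood in 46.4% of tRNA elements and in 0.312% of 2567 elements, with at least 8 counts, of MIR, an old tRNA-derived short interspersed repeat. A TTTT followed within 60 bases of 245 of the 271 RefSeq genes (90.4%), at a median of 9 bases after the gene. In TRE-CTC1-2 it began at base 54, and in TRM-CAT5-1 there was none in 60.

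Sense reads on tRNA were nearly level across the first 3 constructs. The 3 Clover libraries gave 10.0, 10.0 and 10.6 CPM, the Z18fl libraries 11.2, 10.2 and 8.76, the Z18trunc libraries 11.2, 10.2 and 10.3, and the Z18truncZnFmut libraries 10.8, 13.2 and 16.2. Every Z18truncZnFmut library thus lay above every Clover library, by a mean of 3.21 CPM, and above them by 1.81 CPM without replicate 3, although as a percentage of all repeat counts the direction turned. On that scale the Clover libraries held 0.0111% to 0.0131%, above every Z18fl (0.00828% to 0.0105%), Z18trunc (0.00862% to 0.0108%) and Z18truncZnFmut library (0.00814% to 0.0101%). The difference in CPM had an exact two-sided permutation p of 0.1, the smallest that 3 against 3 libraries allow, and an adjusted p of 0.6 over 30 such tests. On RefSeq tRNA genes alone Z18truncZnFmut (9.72, 12.1 and 14.8 CPM) overlapped Clover (9.11, 8.89 and 10.1, exact permutation p = 0.2). It also overlapped Clover without the copies of mitochondrial DNA, on copies under 10% divergence and with uniquely mapping reads. Z18fl differed from Clover by -0.14 CPM and Z18trunc by 0.37 CPM, inside the spread of the libraries. Counting error alone spans 8.55 to 11.6 CPM for Clover replicate 1 and 14.7 to 17.9 CPM for Z18truncZnFmut replicate 3 (exact Poisson, 95%).

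Beside these, the ratio of the Z18fl mean to the Clover mean was 0.986 for tRNA in sense, 1.26 for MIR, 1.23 for the scRNA class, 0.586 for snRNA and 0.781 for srpRNA, the class of the signal recognition particle RNA. With Z18truncZnFmut the same ratios were 1.31, 1.40, 1.63, 1.22 and 1.80, and without its replicate 3 they were 1.18, 1.12, 1.38, 1.22 and 1.86.

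Glutamate tRNA led the sense reads. The family tRNA-Glu-GAG_, which decodes GAG, reached 2.58, 2.34 and 3.34 CPM in Clover, 2.72, 2.09 and 1.67 with Z18fl, 2.69, 2.23 and 2.37 with Z18trunc, and 3.48, 3.95 and 4.87 with Z18truncZnFmut. The 3 Z18truncZnFmut libraries were the highest of the 12. Of its 756 counts, 748 lay on TRE-CTC1-2, TRE-CTC1-3, TRE-CTC1-4 and TRE-CTC1-5, 4 genes between chr1:161447228 and chr1:161469470 inside an intron of ENSG00000283360, and only 2 counts of the family mapped uniquely. These 4 genes were identical to each other in sequence, the 60 following bases included, so their counts were divided among them by the estimate for multimapping reads and only the family sum is meaningful. Scaled by aligned fragments, the family passed the test in none of the 5 comparisons (edgeR). With trimmed-mean scaling (TMM), which centres the bulk of all families between libraries, it was lower with Z18fl than with Clover (-0.79 on the log2 scale, adjusted p = 0.0200), and DESeq2, which also rescales the libraries, gave -0.80 (adjusted p = 0.0225). Its log2 fold change with Z18truncZnFmut against Clover was 0.57 ± 0.47 (SE, adjusted p = 0.314, edgeR), and under that scaling it turned to -0.21.

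Leucine tRNA-Leu-CTG came next, with 0.659, 0.292 and 0.736 CPM in Clover and 0.950, 1.40 and 0.935 with Z18fl. The other constructs gave 0.631, 1.24 and 0.972 CPM (Z18trunc) and 1.20, 1.22 and 1.32 CPM (Z18truncZnFmut). All Z18fl and Z18truncZnFmut libraries lay above all Clover libraries. Its leading gene, TRL-CAG2-1 on chromosome 16, outside any annotated gene, held 133 of the 262 counts, 38 of them unique. That gene had 1, 1 and 7 counts in Clover, 16, 17 and 13 with Z18fl, 2, 16 and 12 with Z18trunc, and 13, 17 and 18 with Z18truncZnFmut.

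The tRNA-Gly-GGY family, which decodes GGC and GGT, was the one of the 10 leading families with fewer sense reads in every Z18fl and Z18trunc library than in any Clover library. Clover gave 1.02, 0.526 and 0.905 CPM, Z18fl 0.173, 0.262 and 0.117, Z18trunc 0.252, 0.372 and 0.296, and Z18truncZnFmut 0.580, 0.752 and 0.206. The Z18truncZnFmut libraries overlapped Clover. Its counts were spread over 11 genes, most of all the near-identical TRG-GCC1-1 to TRG-GCC1-4 in the same part of chromosome 1 as the glutamate genes, and 9 of 112 were unique.

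The other leading families overlapped more. Tyrosine tRNA-Tyr-TAC ranged from 0.331 to 1.26 CPM, the elongator tRNA-Met from 0.175 to 1.04, tRNA-Asn-AAC from 0.0470 to 0.883, and tRNA-His-CAY_ from 0.124 to 0.819. Lysine tRNA-Lys-AAA ran from 0.0423 to 0.517 CPM, tRNA-Asp-GAY from 0.0779 to 0.578, and tRNA-Leu-TTG from 0 to 0.578, where a count of 0 allows up to 3 counts a library (0.170 CPM in Clover replicate 3). In these 7 families the Clover libraries overlapped those of each Z18 construct, except that tRNA-Leu-TTG reached 0.414, 0.470 and 0.454 CPM in Z18truncZnFmut against 0.240, 0.117 and 0 in Clover. The main edgeR fit did not test that difference for want of counts. Without the filter on low counts, 0 of 97 tRNA families by orientation had an unadjusted p under 0.05 in that comparison (edgeR). Single genes among them were few: TRM-CAT5-1 held 75 counts, TRK-TTT3-1 57, TRY-GTA3-1 43 and TRL-CAA1-2 39 over the 12 libraries.

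**Figure D1:**
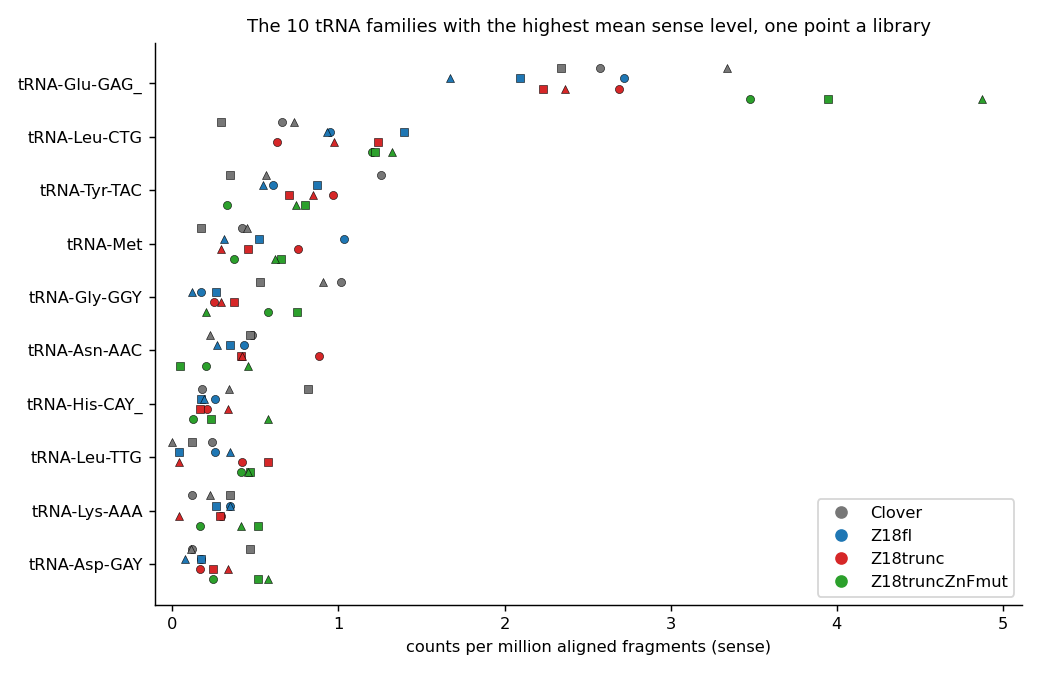
Sense level (CPM of aligned fragments, linear axis) of the 10 tRNA families with the highest means, with a point for each library, circles, squares and triangles for replicates 1, 2 and 3, and colours for the constructs. tRNA-Glu-GAG_ stands clear of the rest, with Z18truncZnFmut from 3.48 to 4.87, and tRNA-Gly-GGY is the family where Z18fl and Z18trunc lie below all Clover libraries.

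Reads reached tRNA of 21 amino acids, selenocysteine included, but unevenly. Glutamate families took 26.0% of the sense counts and leucine families 15.9%, whereas phenylalanine had 2 counts and tryptophan 4. The initiator tRNA-Met-i had 14 sense counts against 136 on the elongator tRNA-Met. Families that contain an intron (tyrosine, Leu-TTG, Ile-ATA and Arg-AGA) held 359 sense counts, at 1.19 ± 0.33 CPM in Clover, 1.22 ± 0.09 with Z18fl, 1.53 ± 0.21 with Z18trunc and 1.45 ± 0.38 with Z18truncZnFmut (mean ± SD, n = 3 each).

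**Figure D2:**
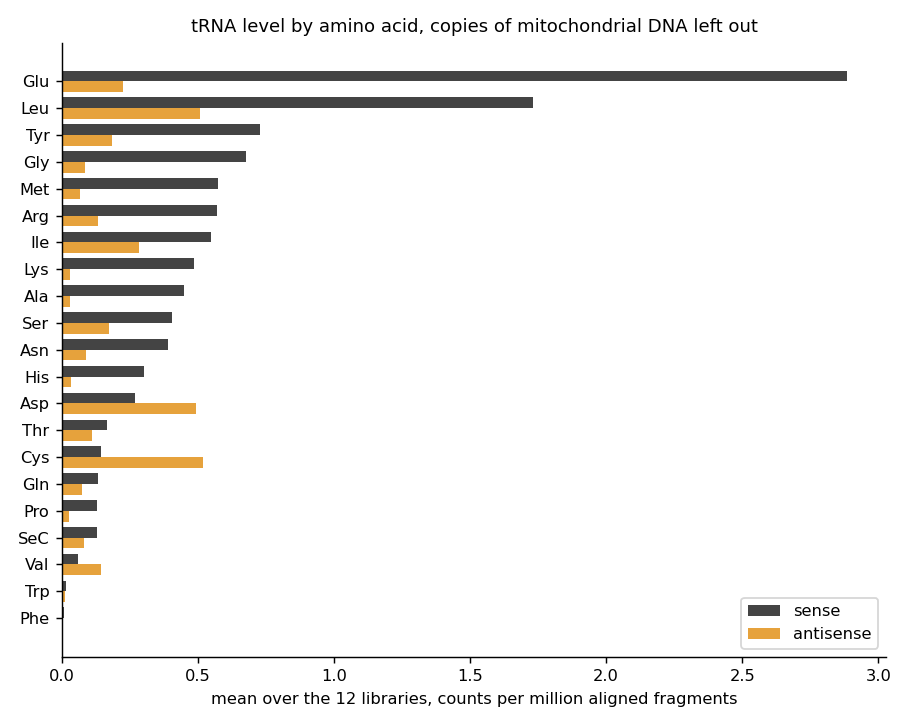
Mean level over the 12 libraries (CPM of aligned fragments) of sense and antisense reads by amino acid, without the copies of mitochondrial DNA. Sense bars run from 2.89 for glutamate and 1.73 for leucine to under 0.1 for valine, tryptophan and phenylalanine, and antisense bars exceed the sense bars for aspartate, cysteine and valine.

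Against Clover, few tRNA features had enough counts to be tested. With Z18fl, 3 of 7 tested tRNA families by orientation passed an adjusted p of 0.05 (edgeR quasi-likelihood test, Benjamini-Hochberg over all families of every repeat class), 1 higher and 2 lower, where over all families of every repeat class 56% were called, 52% higher and 4.04% lower. tRNA-Gly-GGY fell by 2.13 on the log2 scale (SE 0.47, adjusted p = 0.00156) and tRNA-Leu-CTG rose by 0.94 (SE 0.38, adjusted p = 0.0464), beside a median of 0.44 over all families. With Z18trunc, 2 of 6 passed, both lower, against 43.6% of all families called, 42.6% higher and 1.05% lower. tRNA-Gly-GGY fell by 1.39 there (SE 0.46, adjusted p = 0.0256). Trimmed-mean scaling took the median of all families to 0.01 and 0.04, made the fall of tRNA-Gly-GGY larger (-2.55 and -1.83) and ended the call of tRNA-Leu-CTG (0.52, adjusted p = 0.342). That call was also lost with DESeq2 (adjusted p = 0.504), with the replicate number as a block (adjusted p = 0.0704), without the filter on low counts (adjusted p = 0.0515), without Clover replicate 1 or 2 and without any Z18fl replicate. The call of tRNA-Gly-GGY with Z18trunc was lost with the block (adjusted p = 0.0603) and without Clover replicate 1 or 3 or Z18trunc replicate 1 or 2. With Z18fl, DESeq2 set no adjusted p for tRNA-Gly-GGY. In 1 fit of all 12 libraries neither family was called in either comparison (tRNA-Gly-GGY with Z18fl, adjusted p = 0.0652). That fit also called fewer of all families, 4.33% higher and 0.498% lower with Z18fl, and 3.78% higher and 0.199% lower with Z18trunc.

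The balance of directions depended on the filter on low counts. Without it 7 of 100 tRNA families by orientation were called with Z18fl, 5 higher and 2 lower. Over all families 43.6% were then called higher and 3.27% lower. The higher tRNA families were tRNA-Lys-AAG in sense and tRNA-Ile-ATA, tRNA-Leu-CTY, tRNA-Tyr-TAC and tRNA-Val-GTY in antisense. With Z18trunc 3 of 90 tRNA families were called without the filter, of which antisense tRNA-Ile-ATA was higher, beside 33.7% of all families higher and 0.828% lower. With the filter but without Clover replicate 3, 2 were higher and 2 lower with Z18fl, beside 42.1% of all families higher and 3.31% lower.

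With Z18truncZnFmut against Clover, 0 of 7 tRNA families were called by edgeR, 0 at an unadjusted p under 0.05, and DESeq2 set no adjusted p for them. The share called over all 1913 families was 0%, but 595 were higher and 0 lower at an unadjusted p under 0.05. In the fit of all 12 libraries 51.0% of all families were called higher and 0.149% lower, beside 0 of 13 tRNA families. On simulated data for families of every repeat class the main fit recovered 3% of 2-fold and 42% of 4-fold changes here. In that comparison tRNA-Gly-GGY differed by -0.67 ± 0.70 (-0.30 without Z18truncZnFmut replicate 3 and -1.04 without replicate 2) and tRNA-Leu-CTG by 1.14 ± 0.63 (log2, SE). Z18trunc against Z18fl gave 0 of 10 by edgeR, 0 at an unadjusted p under 0.05, against 0.357% of all families (0.102% higher and 0.255% lower). Z18truncZnFmut against Z18trunc gave 0 of 10 by edgeR with 1 at an unadjusted p under 0.05, 0 by DESeq2, and 0% in all.

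For single elements, the call against Clover on a nuclear tRNA gene in the main fit was TRL-CAG2-1. It rose by 1.85 on the log2 scale with Z18fl (SE 0.61, adjusted p = 0.0234, edgeR; 1.45 to 3.32 when 1 library was left out, the highest without Clover replicate 3), among 2 of 5 tested tRNA elements called, where 45.7% of all elements were (32.2% higher and 13.5% lower). With Z18truncZnFmut its value was 1.95 ± 0.68 (SE, adjusted p = 0.0739), which became 3.42 without Clover replicate 3 and was then called (adjusted p = 0.0193). In that comparison 0 of 6 tRNA elements were called by edgeR, 2 at an unadjusted p under 0.05 and 0 by DESeq2, beside 12.2% of all elements (11.4% higher and 0.779% lower). The Z18fl call was lost without Clover replicate 1 or 2 or Z18fl replicate 3, with DESeq2 (adjusted p = 0.101) and with the replicate number as a block (adjusted p = 0.0635), and the element was not tested without Z18fl replicate 1 or 2 or with trimmed-mean scaling. Some other settings called TRE-CTC1-5 or TRG-GCC1-1 lower with Z18fl than with Clover, genes with 0 unique sense counts.

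Antisense reads on tRNA fell into separate sources. RefSeq tRNA genes held 50.8% of the antisense counts, copies of mitochondrial DNA 36.6% and other copies 11.8%. Over every tRNA element the antisense level was 4.56, 3.74 and 5.77 CPM in Clover, 5.18, 5.32 and 5.10 with Z18fl, 3.95, 5.25 and 5.62 with Z18trunc, and 6.45, 7.09 and 6.15 with Z18truncZnFmut. Only Z18truncZnFmut cleared Clover, by 1.88 CPM (exact permutation p = 0.1, the smallest possible, adjusted p = 0.6). The sources ran in different directions once they were split, a split chosen after the values were seen.

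Reads antisense to RefSeq tRNA genes lay above Clover with every Z18 construct. Clover gave 1.32, 1.23 and 1.41 CPM, Z18fl 3.15, 3.01 and 2.88, Z18trunc 2.36, 3.26 and 3.89, and Z18truncZnFmut 3.72, 2.49 and 2.89. All 9 Z18 libraries lay above all 3 Clover libraries, and the means were 2.28, 2.40 and 2.30 times the Clover mean. Each construct against Clover had an exact permutation p of 0.1, the smallest possible, and 0.333 adjusted over the 110 tests under all settings. For antisense reads on MIR the same ratios were 1.32, 1.24 and 1.49, the last of which was 1.15 without Z18truncZnFmut replicate 3. As a percentage of all repeat counts, the Z18fl and Z18trunc libraries still lay above Clover (0.00227% to 0.00325% against 0.00146% to 0.00173%), while those of Z18truncZnFmut, from 0.00145% to 0.00348%, overlapped it. The 3 Z18 groups overlapped each other.

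Sense and antisense reads were unevenly spread over the genes, and some genes had both. Of 84 RefSeq tRNA genes with at least 10 counts, 53 were at least 90% sense, 10 were at most 10% sense and 21 lay between. TRL-AAG1-1 (chr5:181097474-181097555, minus strand) and its identical copy TRL-AAG1-2 (chr5:181101840-181101921, plus strand) held 60.5 and 52.5 antisense counts against 3 sense counts each. Leucine TRL-AAG1-1 had 1.5, 0 and 3 antisense counts in Clover, 8, 7 and 8.79 with Z18fl, 1.01, 5 and 9.5 with Z18trunc, and 12.7, 3 and 1 with Z18truncZnFmut. Either copy had 0 unique antisense counts, so the division between them is an estimate. TRL-AAG1-2 was given 1.5, 0 and 3 in Clover, 8, 0 and 7.21 with Z18fl, 3.99, 5 and 9.5 with Z18trunc, and 10.3, 3 and 1 with Z18truncZnFmut. Isoleucine TRI-TAT1-1 (chr19:39412167-39412260, minus strand), whose tRNA decodes ATA, had 0, 1 and 2 in Clover, 5, 2 and 7 with Z18fl, 12, 6 and 11 with Z18trunc, and 4, 3 and 4 with Z18truncZnFmut. In Z18trunc and Z18truncZnFmut that gene stood above every Clover library, and in Z18fl it overlapped. The sequence of the leucine gene is given in the direction of the tRNA, with its B box in capitals.
TRL-AAG1-1, chr5:181097474-181097555 (minus strand): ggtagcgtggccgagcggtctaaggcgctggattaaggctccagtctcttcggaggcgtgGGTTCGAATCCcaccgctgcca

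By family, antisense tRNA-Cys-TGY averaged 0.518 CPM, tRNA-Asp-GAY 0.492 and tRNA-Leu-CTY 0.460 over the 12 libraries. Of the 21 amino acids, 14 had a higher antisense mean than Clover in each of the 3 Z18 constructs and 1 a lower, where in sense 8 were higher and 4 lower. Some rest on few antisense counts over the 12 libraries: among the 14, lysine had 9 and histidine 8.97, and the lower 1, tryptophan, had 3. Counts over every repeat class were also 1.22, 1.32 and 1.73 times Clover (the last 1.42 without Z18truncZnFmut replicate 3), and the tally was not tested. In antisense the intron-containing families were also lowest in Clover, with 0, 0.0585 and 0.283 CPM in Clover and 0.372 to 0.972 CPM in the 9 Z18 libraries. With the filter on low counts and all libraries, tRNA-Asp-GAY and tRNA-Cys-TGY were the nuclear antisense families that could be tested against Clover. With Z18fl their log2 values were 0.83 ± 0.48 (SE, adjusted p = 0.152) and 0.43 ± 0.44 (SE, adjusted p = 0.417, edgeR). Where other settings let further antisense families be tested, some were called higher than Clover. tRNA-Leu-CTY was called with Z18fl without Clover replicate 3 (2.60, adjusted p = 0.0229), without Z18fl replicate 2 (1.92, adjusted p = 0.0315) and without the filter (1.67, adjusted p = 0.0408). tRNA-Ile-ATA was called with Z18trunc without Clover replicate 1 (2.16, adjusted p = 0.0445), without Clover replicate 3 (3.53, adjusted p = 0.0424) and without the filter (2.68, adjusted p = 0.0287).

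The element with the most antisense reads was a piece of mitochondrial DNA. tRNA-Ser-TCA(m), chr1:632619-632685 on the minus strand, 67 bases long, lies in an intron of ENSG00000230021. With its flanks it matched bases 7398 to 7564 of chrM at 99.4% identity over 167 bases. That stretch overlaps the mitochondrial tRNA genes for serine (TRNS1) and aspartate (TRND), and mitochondrial genes other than tRNA were not looked up. The antisense reads of the copy reached 50 to 66 bases past its 3′ end in all 12 libraries, and whether they belong to such a gene was not tested. These reads lay on the plus strand, shown here with the tRNA stretch in capitals and 50 bases on either side in lower case.
tRNA-Ser-TCA(m) copy, chr1:632569-632735 (plus strand): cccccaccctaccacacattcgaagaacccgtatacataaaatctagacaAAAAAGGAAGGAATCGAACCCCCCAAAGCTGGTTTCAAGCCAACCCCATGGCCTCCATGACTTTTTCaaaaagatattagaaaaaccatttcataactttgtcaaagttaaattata

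It gave 33, 36 and 53 antisense counts in Clover, 24, 26 and 23 with Z18fl, 15, 24 and 16 with Z18trunc, and 46, 73 and 45 with Z18truncZnFmut, beside 11 sense counts in all. In CPM the family spanned 1.98 to 2.999 with Clover, 0.895 to 1.13 with Z18fl, 0.673 to 0.992 with Z18trunc and 1.86 to 3.43 with Z18truncZnFmut. No Z18fl or Z18trunc library reached a Clover or Z18truncZnFmut library, and the last 2 groups overlapped. Of the 414 counts 93 mapped uniquely, and no rows of the tables lay on chrM, so transcripts of mitochondria and of this nuclear copy cannot be told apart for the rest.

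As a family, tRNA-Ser-TCA(m) antisense fell by 1.21 on the log2 scale with Z18fl (SE 0.26, adjusted p = 0.00132) and by 1.59 with Z18trunc (SE 0.33, adjusted p = 0.00215, edgeR), while the value with Z18truncZnFmut was 0.02 ± 0.54 (SE, adjusted p = 0.973) and turned to -0.65 with trimmed-mean scaling. In the fit of all 12 libraries the call of this family was lost with Z18fl and kept with Z18trunc. As a single element the copy fell by 1.21 (adjusted p = 0.00207) with Z18fl and 1.62 (adjusted p = 0.000626) with Z18trunc in the edgeR fit. Z18trunc against Clover had 1 of 5 tested tRNA elements called, beside 28.1% of all elements (24.5% higher and 3.59% lower). Z18truncZnFmut lay above Z18trunc by 1.63 as an element (SE 0.32, adjusted p = 0.0265, edgeR), the 1 call among 6 tRNA elements in that comparison, where 0.354% of all elements were called (0.113% higher and 0.241% lower). The family fit of the same contrast gave 1.61 ± 0.57 (SE, adjusted p = 0.707). The element call was lost without any of the Z18trunc replicates or without Z18truncZnFmut replicate 2. Between Z18trunc and Z18fl 0 of 6 tRNA elements were called by edgeR, 1 at an unadjusted p under 0.05 and 0 by DESeq2, against 3.33% of all elements (1.77% higher and 1.56% lower).

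**Figure D3:**
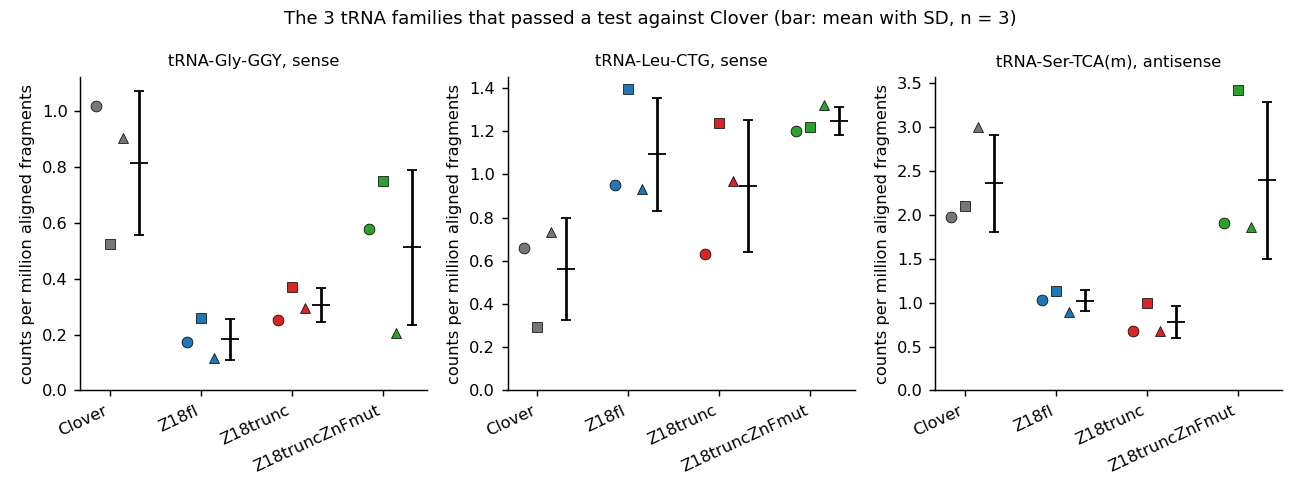
Levels by library (CPM of aligned fragments) of the 3 tRNA families called in a comparison with Clover, with circles, squares and triangles for replicates 1, 2 and 3 and the mean with its SD (n = 3) beside them. tRNA-Gly-GGY sense and tRNA-Ser-TCA(m) antisense are below Clover in all Z18fl and Z18trunc libraries, and tRNA-Leu-CTG sense is above Clover in all Z18fl libraries.

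A second nuclear copy of mitochondrial DNA, tRNA-Gln-CAA_ at chr1:629499-629570 (minus strand, in the same gene), held 93 antisense and 53 sense counts. Its antisense counts were 4, 5 and 15 in Clover, 7, 8 and 10 with Z18fl, 8, 4 and 4 with Z18trunc, and 6, 9 and 13 with Z18truncZnFmut, with all groups overlapping. The 12 mitochondrial copies together had antisense means of 2.94 ± 0.79 CPM in Clover, 1.40 ± 0.15 with Z18fl, 1.004 ± 0.14 with Z18trunc and 2.89 ± 0.97 with Z18truncZnFmut (SD, n = 3).

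**Figure D4:**
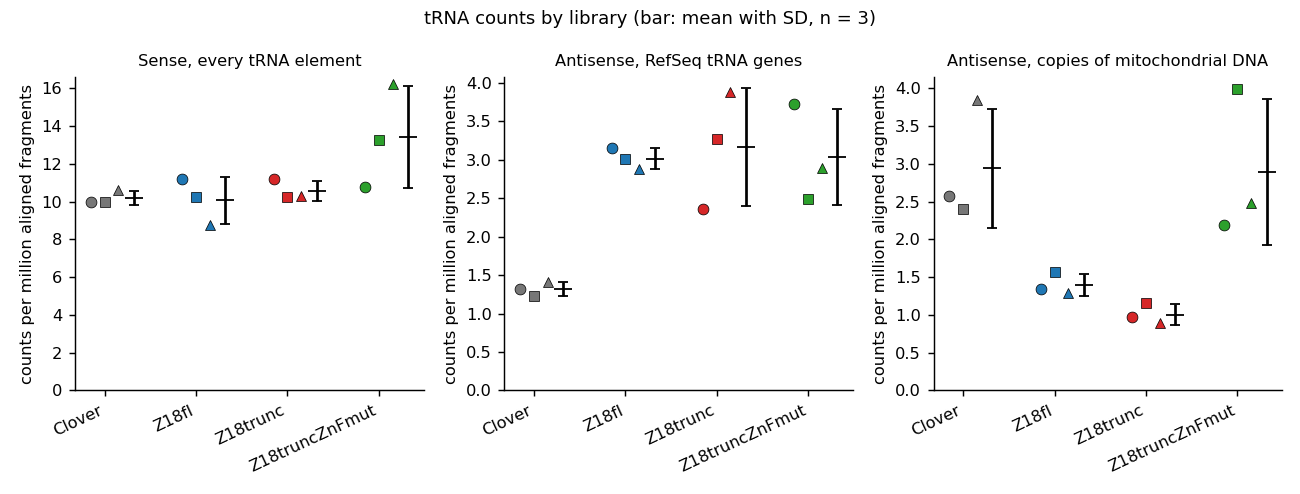
Levels by library (CPM of aligned fragments, axes from 0) of sense reads on every tRNA element, antisense reads on RefSeq tRNA genes and antisense reads on copies of mitochondrial DNA, with circles, squares and triangles for replicates 1, 2 and 3 and the mean with its SD (n = 3). Antisense reads on RefSeq tRNA genes span 1.23 to 1.41 with Clover and 2.36 to 3.89 among the Z18 libraries, whereas those on mitochondrial copies are lowest with Z18fl and Z18trunc.

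The tables give, for each element and strand, the outer bounds of its reads, and these differed between the strands. At RefSeq tRNA genes with at least 3 counts in a library, 278 sense stretches began a median of 2.5 bases before the gene (quartiles -4 and 27, where a negative value is inside the gene) and reached a median of 60 bases past its 3′ end (quartiles 53 and 71). The 83 antisense stretches, at the same kind of gene, reached a median of 52 bases past the 5′ end and 58 past the 3′ end. In sense 31.7% of the stretches had their 5′ bound within 5 bases of the start of the gene, in antisense 1.20%. Only 0.360% of the sense stretches passed 75 bases beyond the 3′ end, so the bound rarely exceeds what a read that overlaps the gene can reach. The 278 sense stretches came from 86 elements, and elements of identical sequence share the same multimapping reads, so their stretches are not independent. TRE-CTC1-2 to TRE-CTC1-5 each entered from all 12 libraries, with the same 5′ bound within a library. The medians, quartiles and percentages thus weight such genes by their number. These values were described after they were seen, and no test was made.

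Sense stretches ran past the first TTTT at most genes. Where it lay 1 to 10 bases after the gene, the stretch reached a median of 68 bases. At 11 to 20 bases it reached 59, at 21 to 40 bases 29, and where there was no TTTT in 60 bases 72.5. At the glutamate genes TRE-CTC1-2 to TRE-CTC1-5, where the first TTTT began at base 54, the 3′ bound lay 52 to 59 bases after the gene in all 12 libraries. The 5′ bound there lay 9 to 42 bases before the gene (median 29.5). Those 4 genes held 748 of the 806 sense counts on the 9 genes with the first TTTT at bases 41 to 60. In the 9 libraries with enough counts, reads on TRL-CAG2-1 began at a median of -1, inside the gene, with a range from -8 to 69 bases before its start. They ended 58 to 75 bases past the gene, where the first TTTT lay at base 8.

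**Figure D5:**
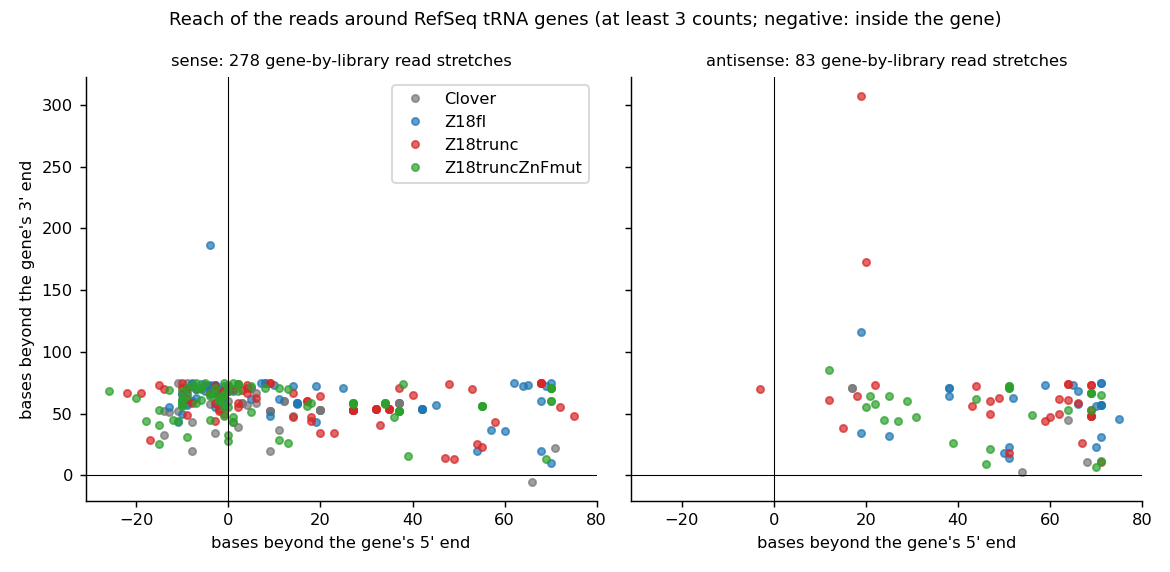
Bases by which the reads reached beyond the 5′ end (horizontal) and the 3′ end (vertical) of RefSeq tRNA genes, with a point for each gene and library of at least 3 counts and colours for the constructs. Genes of identical sequence share reads, so their points can repeat each other. Sense points have a median of 2.5 at the 5′ end of the gene (quartiles -4 and 27) and lie far past the 3′ end (median 60). Antisense points reach far past both ends (medians 52 and 58).

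The shares of tRNA reads by strand, divergence and position depended on which copies were counted. Sense reads made up 68.8 ± 4.0% of the tRNA counts with Clover, 65.8 ± 2.6% with Z18fl, 68.2 ± 4.9% with Z18trunc and 66.7 ± 5.1% with Z18truncZnFmut (SD, n = 3), and Clover overlapped each. Without the copies of mitochondrial DNA the means were 85.2%, 71.9%, 72.6% and 77.4%, and every Clover library lay above every Z18 library. Copies under 10% divergence held 93.2%, 90.02%, 91.2% and 92.8% of the sense counts in that order, with overlap, whereas those under 5% held 83.0%, 72.7%, 74.6% and 76.4%, and Clover again lay above every Z18 library. Each of these differences from Clover without overlap had an exact permutation p of 0.1, the smallest possible, and 0.333 adjusted over the 110 tests. With uniquely mapping reads the share of copies under 10% divergence ran the other way, at 78.2%, 83.2%, 86.2% and 89.2%. Uniquely mapping reads made up 20.8 ± 5.8%, 26.8 ± 2.6%, 26.0 ± 2.7% and 19.5 ± 0.87% (SD, n = 3), and every Z18truncZnFmut library lay below every Z18trunc library (exact permutation p = 0.1, adjusted p = 0.6). Sense counts outside annotated genes on their strand made up 51.6 ± 2.4% in Clover and 57.5 ± 2.9% with Z18fl without overlap (exact permutation p = 0.1, adjusted p = 0.6), 50.8 ± 6.5% with Z18trunc and 50.6 ± 5.1% with Z18truncZnFmut.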

How the data were processed

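Per the labels and the study's methods, reads were trimmed (cutadapt 4.6, per the submitters' processing notes) and quantified by the authors with SQuIRE on hg38; its version is not given in the sources used here. The deposited tables give, per repeat element and strand, uniquely mapped read counts, expected counts in which multimapping reads are shared out by estimation, and a percent score. The precision of a family thus depends on reads that do not map uniquely. Expected counts were summed by family and orientation, rounded, and divided by the aligned fragments of the library.

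Families and single elements of every repeat class were tested with edgeR 4.0.16 (quasi-likelihood, filterByExpr, library size set to aligned fragments, 6 libraries a comparison, Benjamini-Hochberg over all features). Single values were compared by exact permutation. Intervals and floors cover counting error only, since reads carry no molecular identifiers. tRNA genes were matched to RefSeq by at least 50% overlap, mitochondrial copies by BLAST 2.17.0 matches of at least 60 bases to chrM, and positions to GENCODE 44. The text names the 10 families highest in sense and the 5 highest in antisense, their leading elements, and calls. The members and lists were chosen with earlier results of these data known. The fits were tested on simulated data with changes of 2-fold and 4-fold. The changed features were drawn from every repeat class after the filter, with no shift of the others, so the rates are not those of tRNA features alone. For families the fits recovered 88% and 94% of such changes with Z18fl and 81% and 96% with Z18trunc, each against Clover. With Z18truncZnFmut they recovered 3% and 42% against Clover and 6% and 48% against Z18trunc, so 0 calls there do not show absence of change. For single elements they recovered 8% to 14% of 2-fold and 65% to 73% of 4-fold changes, and 5.75% to 11.2% of calls were false. Same-numbered Z18trunc and Z18truncZnFmut libraries deviated together (correlations 0.56, 0.33 and 0.71), a pairing read from the data and not from the labels. Alternatives were trimmed-mean scaling, DESeq2 1.42.0, no filter, unique reads, both strands, all 12 libraries in 1 fit, the replicate block, and each library left out.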

Additional observations from a re-analysis of the deposited data

Results flagged for a closer look

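The antisense reads on the tRNA-Ser-TCA(m) copy of mitochondrial DNA differed between the truncated proteins with and without the zinc-finger mutation, by a test of the difference itself. Z18truncZnFmut lay 1.63 above Z18trunc on the log2 scale (adjusted p = 0.0265, edgeR), and its 3 libraries were above all 3 Z18trunc libraries. In the same libraries Z18truncZnFmut replicate 3 stood apart in its share of repeat reads, and without it the value was 1.78 (adjusted p = 0.0366). The call was lost without any of the Z18trunc replicates, without Z18truncZnFmut replicate 2 and with uniquely mapping reads, and the family fit of nearly the same counts gave an adjusted p of 0.707.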

How the results depend on the processing

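Few tRNA counts limit every value, and most families rest on reads that do not map uniquely. Differences are given as the first construct minus the second, in CPM, percentage points or log2 units, and where no cause is named the cause was not tested.

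As a percentage of all repeat counts, sense differences from Clover turned to -0.00258 (Z18trunc) and -0.00271 (Z18truncZnFmut), antisense ones to -0.000533 (Z18fl), -0.00116 (Z18trunc) and -0.000746 (Z18truncZnFmut), and sense to -0.000222 (Z18trunc against Z18fl) and -0.000123 (Z18truncZnFmut less Z18trunc). With unique reads, the sense difference became 0.614 for Z18fl against Clover and -0.151 for Z18truncZnFmut against Z18trunc, the share of copies under 10% divergence 5.03, 7.99 and 11.1 for Z18fl, Z18trunc and Z18truncZnFmut against Clover, and the intergenic share of Z18truncZnFmut 12.03 (against Clover) and 18.3 (against Z18trunc). Antisense Z18trunc against Z18fl turned to 0.141 for copies under 10% divergence, 0.134 without mitochondrial copies and 0.156 for RefSeq genes. Z18truncZnFmut against Z18trunc turned to -0.0913, -0.257 and -0.134 in that order, and to -0.000543 for RefSeq genes as a percentage, and its sense share to 4.83 without mitochondrial copies.

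Calls of families with Z18fl went from 3 to 7 without the filter and to 0 in the fit of all 12 libraries. With Z18trunc they went from 2 to 1 in that fit and with the replicate block. Over all families, the share called higher with Z18fl went from 52.0% to 43.6% without the filter and 4.33% in that fit. The same share with Z18trunc went from 42.6% to 3.78% in that fit and 33.6% with the block. Calls of elements with Z18fl went from 2 to 1 with the block and to 3 without the filter or with all 12 libraries. Those with Z18truncZnFmut against Clover went from 0 to 1 without the filter, 2 with all 12 libraries and 1 with the block. The block call and 1 of the 2 with all 12 libraries lay on TRE-CTC1-2, which had 0 unique counts. Its counts are a share set by estimation among identical genes, and the family was called under neither setting. With Z18fl, TRE-CTC1-5 was called lower than Clover with all 12 libraries, with trimmed-mean scaling and without Clover replicate 2. TRG-GCC1-1 was called lower there with DESeq2 and without the filter, and both genes had 0 unique sense counts. The 1 element called for Z18truncZnFmut against Z18trunc became 0 with unique reads. At an unadjusted p under 0.05 there was 1 family and 2 elements for Z18truncZnFmut against Z18trunc, 2 elements for Z18truncZnFmut against Clover and 1 for Z18trunc against Z18fl (edgeR). With Z18truncZnFmut against Clover, tRNA-Glu-GAG_ sense turned to -0.21 and tRNA-Ser-TCA(m) antisense to -0.65 under trimmed-mean scaling, and the second to -0.014 with the replicate block. Apart from Z18trunc with Z18truncZnFmut, the shared numbers showed no pairing (correlations -0.32 to 0.11), and the block ended the calls of tRNA-Leu-CTG and TRL-CAG2-1 with Z18fl and of tRNA-Gly-GGY with Z18trunc, added that of TRE-CTC1-2 in sense for Z18truncZnFmut against Clover, and changed no other tRNA call.

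Leaving out each library, the sense level ranged from -0.714 to 0.520 (Z18fl against Clover) and -0.154 to 1.08 (Z18trunc against Z18fl), and the antisense level from -0.224 to 0.792 (Z18trunc against Clover) and -0.599 to 0.233 (Z18trunc against Z18fl). The sense share ranged from -3.35 to 1.47 (Z18trunc against Clover), -4.91 to 0.0455 (Z18truncZnFmut against Clover), -0.389 to 4.19 (Z18trunc against Z18fl) and -4.39 to 1.31 (Z18truncZnFmut against Z18trunc). The low-divergence share ranged from -1.41 to 1.38 (Z18truncZnFmut against Clover) and -0.0451 to 2.06 (Z18trunc against Z18fl), the unique share from -4.52 to 1.17 and -2.27 to 0.629 in the same order. The intergenic share ranged from -4.11 to 2.38 (Z18trunc against Clover), -2.79 to 1.90 (Z18truncZnFmut against Clover) and -3.38 to 3.11 (Z18truncZnFmut against Z18trunc). Family calls ranged from 1 to 2 with Z18trunc, and element calls from 1 to 2 with Z18fl, 0 to 1 with Z18truncZnFmut against Clover and 0 to 1 against Z18trunc. tRNA-Ser-TCA(m) antisense with Z18truncZnFmut against Clover ranged from -0.33 to 0.23. With unique reads no tRNA feature could be tested for Z18fl or Z18trunc against Clover, nor any element between those proteins, and DESeq2 set no adjusted p for tRNA families in 2 comparisons.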
